A study of Homo sapiens with 15 samples.

Results

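The insulin-like growth factor (IGF) binding proteins IGFBP1 to IGFBP7 and the pappalysins PAPPA and PAPPA2, the metalloproteases that cut them, were followed through senescence and treatment with GNF-7 in the human fibrosarcoma line HT-1080, an established cell line. These 9 genes were taken by symbol from the 60670 genes of the count table, and all 9 were found there. Messenger RNA was sequenced in 15 libraries, 3 in each of 5 groups. The groups were cycling cells in the vehicle DMSO labelled 6 h, senescent cells in DMSO for 6 h or for 24 h, and senescent cells in GNF-7, a tyrosine kinase inhibitor, at 1 uM for 6 h or for 24 h. All cells of the study were HT-1080 grown at 5% oxygen in medium with tetracycline-free serum. Senescence had been induced by expressing a dominant negative TRF2 for 6 days, which uncaps telomeres. There was no GNF-7 group in cycling cells and no cycling group at 24 h. The titles number the libraries as biological replicates, but the labels do not say how the cultures were separated, so the p-values measure the spread between these samples.

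IGF1 and IGF2 act through the receptor IGF1R, and the binding proteins hold these ligands in the extracellular fluid, which both extends their life and keeps them from the receptor. IGFBP7 differs from the others in that it binds IGFs weakly. PAPPA cuts IGFBP2, IGFBP4 and IGFBP5 and PAPPA2 cuts IGFBP3 and IGFBP5, which frees the ligand, while the stanniocalcins STC1 and STC2 bind both proteases and block them. Several binding proteins are known secreted products of senescent cells. Only RNA was measured here, so the levels say nothing of secretion, cleavage or ligand release.

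The upstream sequences of both pappalysin genes are shown because these genes, which encode related enzymes, responded in opposite directions to GNF-7 at 24 h. They come from RefSeq on GRCh38.p14, read on the plus strand, at chr1:176462925-176463170 for PAPPA2 and chr9:116153541-116153790 for PAPPA, and they end before the annotated start of each gene. Capitals mark matches to the motifs named after them.
PAPPA2: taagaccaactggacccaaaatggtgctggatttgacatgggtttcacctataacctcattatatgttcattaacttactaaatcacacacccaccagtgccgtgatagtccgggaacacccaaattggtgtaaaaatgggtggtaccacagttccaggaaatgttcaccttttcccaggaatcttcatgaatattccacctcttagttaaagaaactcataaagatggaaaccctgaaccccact
PAPPA: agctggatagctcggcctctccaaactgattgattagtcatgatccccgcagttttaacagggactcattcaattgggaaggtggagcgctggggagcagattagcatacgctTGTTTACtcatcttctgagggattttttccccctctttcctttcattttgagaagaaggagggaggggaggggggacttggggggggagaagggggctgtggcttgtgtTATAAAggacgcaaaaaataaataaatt
6 motifs were searched on both strands, among them the TATA box (TATAAA) and a FOXO site (TGTTTAC), with no overlap between the matches printed. The others were the C/EBP-ATF response element core (TGATGNAA), the antioxidant response element core (TGACNNNGC), the AP-1 site (TGANTCA) and the cAMP response element (TGACGTCA). In 35116 RefSeq windows of 300 bases (250 before and 50 after a gene start), they were found in 11.5%, 3.42%, 3.62%, 13.3%, 7.71% and 1.85% of windows, in the order named. PAPPA held the FOXO site 137 bases and the TATA box 28 bases before its RefSeq start. These letters were not in the PAPPA2 window for any of the 6 motifs. Windows were given for 7 of the 9 genes, and IGFBP1 and IGFBP7 had none in the table. Among the rest, IGFBP6 held the FOXO site on the minus strand and IGFBP4 the TATA box, and IGFBP2, IGFBP3 and IGFBP5 held none of the 6.

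Library totals ran from 25991007 to 32323393 counts, and the share from mitochondrial genes differed between groups, from 4.32% ± 0.637 in cycling cells through 11.7% ± 0.638, 14.1% ± 1.08 and 16.9% ± 1.80 in senescent DMSO 6 h, GNF-7 6 h and DMSO 24 h to 23.3% ± 0.767 in GNF-7 24 h (SD, n = 3). TERF2, the gene of TRF2, stood at 58.2 ± 3.65 CPM (counts scaled to library size) in cycling cells and at 287 ± 8.17, 222 ± 8.60, 220.0 ± 7.26 and 132 ± 5.38 CPM in the same order of senescent groups (SD, n = 3). Of 8 mesenchymal markers that fit a fibrosarcoma line, THY1 and COL1A2 were under 1 CPM in all libraries, and the summed level of the list was 8888, 10205, 8970, 10448 and 6037 CPM from cycling DMSO to senescent GNF-7 24 h. The sum was unevenly made up. From DMSO 24 h to GNF-7 24 h, mean SPARC went from 3247 to 623 CPM and FN1 from 1885 to 860 CPM. CD44 went from 1438 to 989 CPM and VIM from 3863 to 3557 CPM. The 4 epithelial, 4 leukocyte and 3 hepatocyte markers were under 1 CPM in every library, with list sums of at most 0.347, 0.724 and 0.334 CPM, and the endothelial pair summed to between 0.255 and 1.20 CPM. The part of the mitochondrial share, of TERF2 and of the mesenchymal sum in the results below was not tested. In bulk RNA, fewer cells of a kind and less RNA per cell cannot be told apart.

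Levels between genes were compared per kilobase of exon (FPKM, here CPM divided by the summed exon length in kilobases). On that scale IGFBP7 was the highest and IGFBP6 the next highest of the 9 genes in all 5 groups, with IGFBP7 at 107 to 139 FPKM and IGFBP6 at 24.4 to 92.7 FPKM (group means). Next came IGFBP2 in cycling cells at 4.82 FPKM, PAPPA in 3 of the senescent groups at 5.10 to 5.59 FPKM, and PAPPA2 in senescent GNF-7 24 h at 6.28 FPKM. IGFBP4 reached 0.560 FPKM in cycling cells and at most 0.225 FPKM in senescent groups. The group means of IGFBP1 and IGFBP5 were at most 0.12 FPKM, and IGFBP3 had 0 counts in all 15 libraries.

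**Figure D1:**
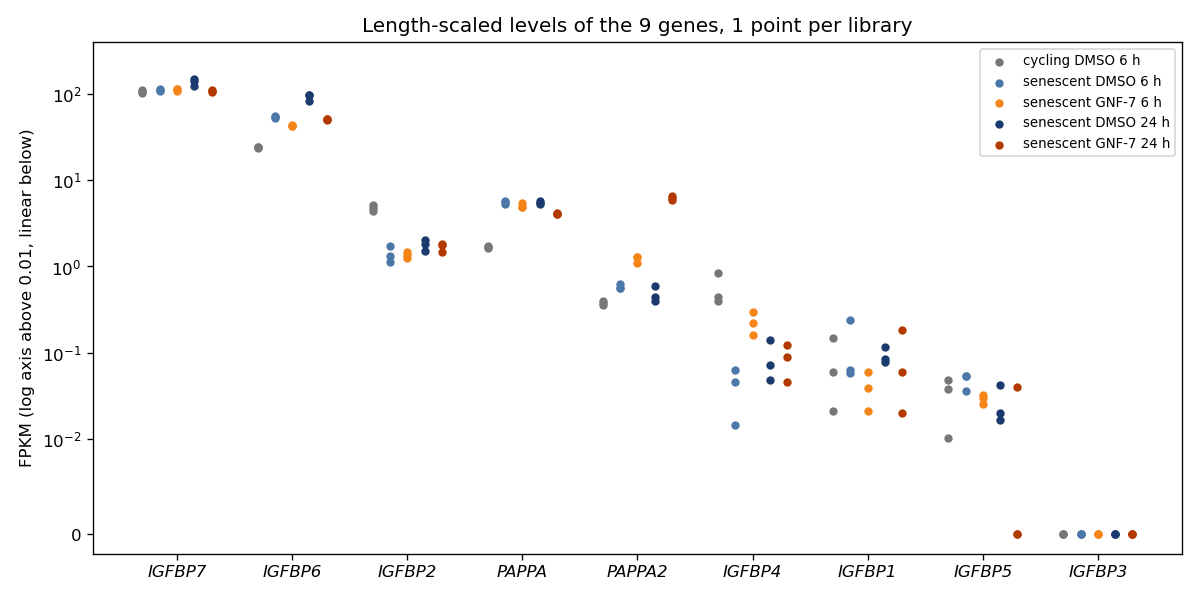
Level of each of the 9 genes in each of the 15 libraries, in FPKM on an axis that is logarithmic above 0.01 and linear below, coloured by group. IGFBP7 and IGFBP6 are highest in every group, PAPPA2 climbs from 0.379 FPKM in cycling cells to 6.28 FPKM in senescent GNF-7 24 h (group means), and IGFBP3 is at 0 throughout.

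IGFBP3, the main carrier of IGFs in serum, lies on chromosome 7 from 45912245 to 45921874, minus strand, 18576 bases from the end of IGFBP1 (ENSG00000146678, 45888357 to 45893668, plus strand). Its 0 counts (ENSG00000146674) allow at most 3 counts per library, or 0.0947 to 0.121 CPM, an allowance for counting error only. IGFBP1, a binding protein known from liver, had 1 to 12 counts per library and 60 in all. Of the genes around this pair, AC096582.3 had 0 to 2 counts and PKD1L1 3 to 36, while ADCY1 had 519 to 1824 and TNS3 2475 to 4362. Of 19902 protein-coding genes in the table, 1965 (9.9%) had 0 counts in all 15 libraries, so IGFBP3 was not alone in this.

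IGFBP5, which is cut by both pappalysins, lies tail to tail with IGFBP2 on chromosome 2, with 7668 bases between them (IGFBP5, ENSG00000115461, 216672105 to 216695525, minus strand; IGFBP2, ENSG00000115457, 216632828 to 216664436, plus strand). IGFBP2 had 169 to 696 counts per library where IGFBP5 had 0 to 11 and 84 in all. In senescent GNF-7 24 h the IGFBP5 counts were 0, 8 and 0. Neither IGFBP1 nor IGFBP5 passed the filter on low counts, and without a filter neither was called in any comparison by edgeR's quasi-likelihood test (adjusted p 0.354 to 1 for IGFBP1, 0.55 to 1 for IGFBP5, 37441 genes tested). With GNF-7 24 h replicate 2 left out, IGFBP5 passed the filter and was called lower in GNF-7 than in DMSO at 24 h (adjusted p = 0.00868), with both remaining GNF-7 libraries at 0 counts. No difference of these low genes was otherwise detectable at this depth.

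6 of the 9 genes were tested, and changes are log2 fold changes from edgeR's quasi-likelihood test over all 15 libraries, called at a Benjamini-Hochberg adjusted p under 0.05 over 18563 genes. In senescent against cycling cells in DMSO at 6 h, IGFBP6, PAPPA and PAPPA2 rose, IGFBP2 and IGFBP4 fell, and IGFBP7 was not called. These 5 calls of 6 stand beside 70.0% of all genes called, 35.6% higher and 34.4% lower, and the median change of the 6 genes was 0.34 against 0.06 over all genes. GNF-7 at 6 h raised PAPPA2 and IGFBP4 and lowered IGFBP6 and PAPPA, 4 calls of 6 beside 39.3% of all genes (17.9% higher, 21.4% lower), with medians of -0.01 and 0.007. GNF-7 at 24 h raised PAPPA2 and lowered IGFBP6, IGFBP7 and PAPPA, again 4 of 6 beside 58.9% of all genes (29.3% higher, 29.7% lower), with medians of -0.22 and 0.04. With 6 genes tested, these counts are not read as a result about them. The senescent DMSO 6 h libraries serve in both 6 h comparisons and in the comparison of the DMSO times, so these are not independent of each other. Likewise the DMSO 24 h libraries serve in the GNF-7 comparison at 24 h and in that of the DMSO times. The difference of the GNF-7 effect between times reuses all senescent libraries.

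**Figure D2:**
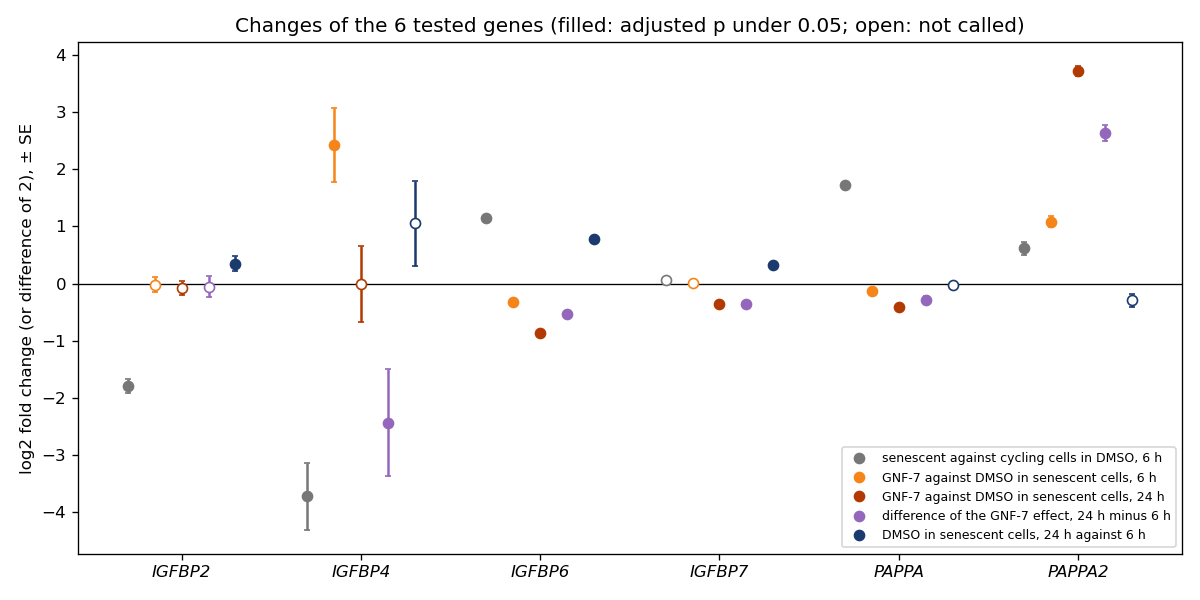
Log2 fold change (± SE) of the 6 tested genes in each comparison and for the difference of the GNF-7 effect between times, with filled points called at adjusted p under 0.05 and open points not called. PAPPA2 has the highest value, 3.72 under GNF-7 at 24 h, and IGFBP4 the widest errors.

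IGFBP6, which prefers IGF2 as its ligand, differed between each pair of groups compared. It lies on chromosome 12 from 53097436 to 53102345, plus strand (ENSG00000167779). Its level was 33.2, 33.2 and 32.3 CPM in cycling cells, and 74.7, 70.5 and 72.4 CPM in senescent DMSO 6 h. In GNF-7 it was 59.4, 57.8 and 57.2 CPM at 6 h and 69.8, 69.1 and 67.5 CPM at 24 h, against 132, 112 and 130.4 CPM in DMSO at 24 h. No 2 groups overlapped, and the order from high to low was DMSO 24 h, DMSO 6 h, GNF-7 24 h, GNF-7 6 h and cycling cells. Senescence raised it by 1.14 ± 0.0527 (log2, SE; adjusted p = 1.4e-28). With GNF-7 it fell by 0.32 ± 0.0495 at 6 h (adjusted p = 2.52e-07) and fell by 0.86 ± 0.0479 at 24 h (adjusted p = 3.56e-24). The 24 h DMSO libraries were themselves above those of 6 h by 0.78 ± 0.0478 (adjusted p = 3.71e-20), a comparison in which 3 of the 6 genes were called, all higher, beside 18.5% of all genes, 9.26% higher and 9.29% lower.

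IGFBP7, the weak IGF binder and the most abundant of the 9 per length, stood at 217, 197 and 205 CPM in cycling cells, 223, 208 and 215 CPM in senescent DMSO 6 h, and 221, 208 and 219 CPM in GNF-7 6 h. At 24 h it was at 287, 244 and 275 CPM in DMSO and at 209, 203 and 218 CPM in GNF-7. The libraries of DMSO 24 h lay above those of all other groups, and the other 4 groups overlapped in turn. IGFBP7 fell by 0.36 ± 0.0437 with GNF-7 at 24 h (log2, SE; adjusted p = 9.64e-10) and was higher in DMSO 24 h than in DMSO 6 h by 0.32 ± 0.0437 (adjusted p = 2.12e-07). With senescence its difference was 0.06 ± 0.044 (adjusted p = 0.222), and it was called higher by 0.19, 0.21 or 0.12 when scaled by total counts, with a filter at a mean of 5 CPM, or fitted on these 2 groups only. Its gene (ENSG00000163453, chromosome 4, 57030773 to 57110385, minus strand) shares 270 exonic bases, 14% of its exons, with POLR2B on the other strand, which had 4495 to 8715 counts, and the counting setting for strand is not given in the sources used here.

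IGFBP2, a binding protein that also contacts integrins, was lower in senescent cells of every treatment. It stood at 25.0, 21.2 and 22.7 CPM in cycling cells and at 8.34, 5.34 and 6.24 CPM in senescent DMSO 6 h. In GNF-7 it was 5.96, 6.51 and 7.10 CPM at 6 h and 8.58, 7.02 and 8.53 CPM at 24 h, and in DMSO 24 h it was 9.60, 7.12 and 8.63 CPM. The cycling libraries lay apart from all senescent ones, while each senescent group overlapped the next in order. With senescence it fell by 1.79 ± 0.119 (log2, SE; adjusted p = 1.22e-19). With GNF-7 the differences were -0.02 ± 0.131 (95% interval -0.28 to 0.23) at 6 h and -0.07 ± 0.126 (-0.32 to 0.17) at 24 h, with adjusted p of 0.91 and 0.631. The called rise from 6 h to 24 h in DMSO, 0.35 ± 0.128 (adjusted p = 0.0467), came with overlapping groups. It was lost without cycling replicate 1, 2 or 3 (0.35 in each), senescent DMSO 6 h replicate 2 or 3 (0.21 and 0.31), DMSO 24 h replicate 1 or 3 (0.25 and 0.34) or GNF-7 24 h replicate 3 (0.35). The call was also lost with total counts as the scale (0.24), DESeq2 (0.35), limma voom (0.37) and a fit of only the groups compared (0.35).

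IGFBP4, the substrate that PAPPA cuts when IGF is bound, was scarce. Its counts were 46, 28 and 27 in cycling cells, 3, 1 and 4 in senescent DMSO 6 h, 15, 19 and 11 in GNF-7 6 h, 5, 3 and 8 in DMSO 24 h and 8, 6 and 3 in GNF-7 24 h. Cycling cells were highest, GNF-7 6 h lay between them and the other 3 groups, and those 3 overlapped. The gene (ENSG00000141753, chromosome 17, 40443461 to 40457731, plus strand) cleared the filter in the 3 cycling and the 3 GNF-7 6 h libraries and in 0 of the others, so it was tested because of the groups where it was high, and its calls against senescent DMSO 6 h were in part built in. Summed over a group, cycling cells had 13.5 times the level of senescent DMSO 6 h (95% exact Poisson interval 6.62 to 32.2, 101 counts against 8), and GNF-7 6 h had 5.58 times (2.60 to 13.7, 45 counts against 8), intervals that cover counting error only. In the fit the changes were -3.72 ± 0.593 with senescence and 2.43 ± 0.642 with GNF-7 at 6 h (log2, SE; adjusted p = 1.17e-07 and 0.00159). At 24 h the GNF-7 difference was -0.009 ± 0.664 (adjusted p = 0.992).

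**Figure D3:**
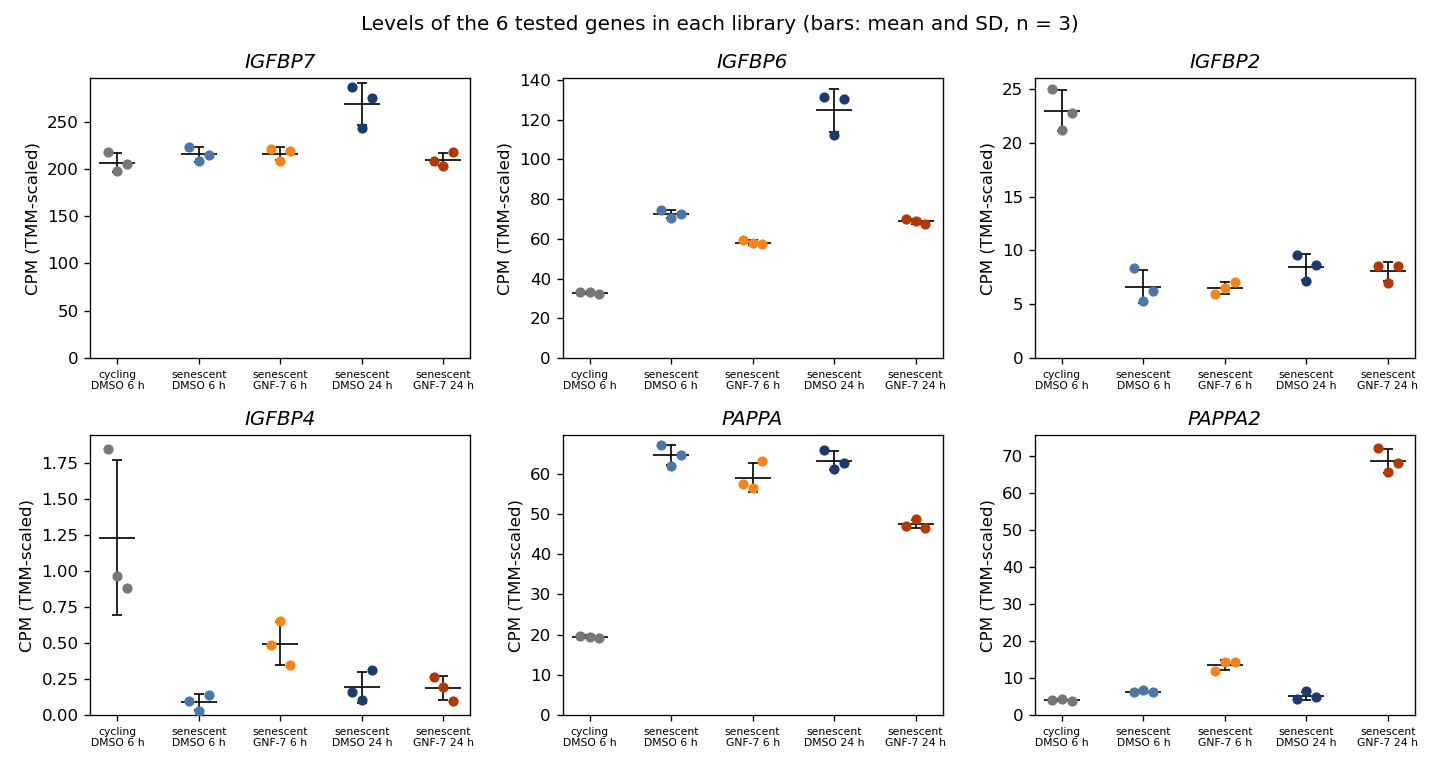
Level of each of the 6 tested genes in each library (points), in CPM after TMM scaling, with the group mean and SD (n = 3) as bars, each panel with its own axis from 0. The libraries of DMSO 24 h are above all others for IGFBP6 (112 to 132 CPM) and IGFBP7 (244 to 287 CPM), the cycling libraries for IGFBP2 (21.2 to 25.0 CPM), and those of GNF-7 24 h for PAPPA2 (65.5 to 72.1 CPM).

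Among the binding proteins as a group, IGFBP7 made up 78.2% ± 0.509 of the summed IGFBP FPKM in cycling cells and IGFBP6 17.9% ± 0.766 (SD, n = 3). In senescent DMSO cells the split was 66.8% ± 0.0117 and 32.3% ± 0.213 at 6 h and 59.5% ± 0.427 and 39.6% ± 0.406 at 24 h. With GNF-7 it was 71.4% ± 0.632 and 27.6% ± 0.610 at 6 h and 67.2% ± 1.05 and 31.6% ± 1.06 at 24 h. The share of IGFBP6 was therefore higher in each senescent group than in cycling cells, and lower in GNF-7 than in DMSO at both times. IGFBP2 made up 3.51% ± 0.140 in cycling cells and 0.756% to 1.04% in the senescent groups.

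PAPPA, the protease of IGFBP2, IGFBP4 and IGFBP5 (ENSG00000182752, chromosome 9, 116153804 to 116402322, plus strand), rose with senescence and fell with GNF-7 at 24 h. It stood at 19.8, 19.5 and 19.2 CPM in cycling cells, 67.1, 62.0 and 64.8 CPM in senescent DMSO 6 h, and 65.8, 61.3 and 62.8 CPM in DMSO 24 h. With GNF-7 it was 57.5, 56.5 and 63.2 CPM at 6 h and 47.2, 48.7 and 46.6 CPM at 24 h. All senescent libraries lay above the cycling ones, and those of GNF-7 24 h were the lowest of the senescent libraries. It rose by 1.73 ± 0.0576 with senescence (log2, SE; adjusted p = 7.55e-36) and fell by 0.41 ± 0.0522 with GNF-7 at 24 h (adjusted p = 3.89e-10). The GNF-7 6 h libraries overlapped those of DMSO, with a difference of -0.13 ± 0.0511 (adjusted p = 0.0366). That call was lost under 5 of the other settings and without senescent DMSO 6 h replicate 1 or 3 (-0.10 and -0.13) or GNF-7 6 h replicate 1 or 2 (-0.11 and -0.09). DMSO at 24 h against 6 h gave -0.03 ± 0.0511 (95% interval -0.13 to 0.07, adjusted p = 0.763). With total counts as the scale, PAPPA was called lower there (-0.14). PAPPA shares 2450 exonic bases, 21.2% of its exons, with PAPPA-AS1 on the other strand, which had 0 to 7 counts.

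PAPPA2, the protease of IGFBP3 and IGFBP5 (ENSG00000116183, chromosome 1, 176463171 to 176845605, plus strand), had its lowest mean in cycling cells and its highest in GNF-7 24 h. Its level was 4.14, 4.37 and 3.92 CPM in cycling cells, 6.13, 6.76 and 6.14 CPM in senescent DMSO 6 h and 4.37, 6.42 and 4.84 CPM in DMSO 24 h. With GNF-7 it was 11.9, 14.2 and 14.2 CPM at 6 h and 72.1, 65.5 and 68.2 CPM at 24 h. The GNF-7 groups lay above all DMSO groups and did not overlap each other. It rose by 0.62 ± 0.12 with senescence (log2, SE; adjusted p = 7.7e-06), by 1.08 ± 0.0991 with GNF-7 at 6 h (2.12-fold; adjusted p = 3.53e-14) and by 3.72 ± 0.0932 at 24 h (13.2-fold; adjusted p = 1.75e-41). From 6 h to 24 h in DMSO it differed by -0.29 ± 0.115 (adjusted p = 0.0706, with the groups overlapping). It was called lower there when scaled by total counts (-0.40) and without DMSO 24 h replicate 2 (-0.47).

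The difference of the GNF-7 effect between 24 h and 6 h was called for 5 of the 6 genes, with 30.8% of all genes called (12.8% higher, 18.0% lower). The GNF-7 effect on PAPPA2 was larger at 24 h than at 6 h by 2.64 ± 0.14 (log2, SE, adjusted p = 7.78e-24). IGFBP6 (-0.54 ± 0.0689), IGFBP7 (-0.36 ± 0.0619) and PAPPA (-0.28 ± 0.0731) had a more negative GNF-7 effect at 24 h than at 6 h. Their adjusted p were 2.47e-09, 6.29e-06 and 0.00157. For IGFBP6 and IGFBP7 the DMSO libraries were themselves higher at 24 h than at 6 h. IGFBP4 was called at -2.43 ± 0.936 (adjusted p = 0.04). It cleared the filter in GNF-7 6 h but in no library of the other groups compared here, so this call was in part built in. Its call was lost in a fit without a filter, with limma voom and in a fit of only the groups compared. It was also lost without senescent DMSO 6 h replicate 1 or 2 (-2.52 and -2.03), GNF-7 6 h replicate 1 or 2 (-2.45 and -2.20), DMSO 24 h replicate 1 or 3 (-2.55 and -1.955) or GNF-7 24 h replicate 2 or 3 (-2.47 and -2.14). IGFBP2 gave -0.05 ± 0.182 (adjusted p = 0.879). The median over the 6 genes was -0.32, against a value near 0 over all genes.

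The balance of the pappalysins changed with these levels. PAPPA plus PAPPA2 summed to 2.06 ± 0.0409 FPKM in cycling cells, 6.17 ± 0.190 FPKM in senescent DMSO 6 h, 6.33 ± 0.379 FPKM in GNF-7 6 h, 5.95 ± 0.124 FPKM in DMSO 24 h and 10.4 ± 0.254 FPKM in GNF-7 24 h (SD, n = 3). PAPPA2 made up 18.4% ± 0.725 of this sum in cycling cells, 9.42% ± 0.810 in senescent DMSO 6 h and 8.03% ± 1.76 in DMSO 24 h. With GNF-7 its share was 19.4% ± 1.57 at 6 h and 60.4% ± 1.56 at 24 h. PAPPA thus gave most of the pappalysin RNA per length in 4 groups and PAPPA2 in GNF-7 24 h, and with coding length in place of exon length the share there was 56.7%.

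The pappalysin inhibitors were 3 genes, of which STC1 and STC2 were tested and PRG2 had 0 to 5 counts per library. Both stanniocalcins rose with senescence, 2 of 2 called, beside 35.6% of all genes called higher and 34.4% lower. STC1 stood at 652, 668 and 677 CPM in cycling cells and 1162, 1046 and 1101 CPM in senescent DMSO 6 h, a rise of 0.73 ± 0.0381 (log2, SE; adjusted p = 4.4e-24). STC2 stood at 184, 184 and 186 CPM and at 653, 563 and 630 CPM, a rise of 1.73 ± 0.0544 (adjusted p = 4.39e-18). The members of this pair then moved apart under GNF-7. STC2 reached 1120, 1028 and 1099 CPM in GNF-7 6 h (0.82 ± 0.0518, adjusted p = 1.6e-11), and 846, 798 and 828 CPM at 24 h against 564, 481 and 520 CPM in DMSO (0.66 ± 0.052, adjusted p = 2.29e-10). STC1 was not called at 6 h (0.04 ± 0.0378, adjusted p = 0.492) and fell at 24 h (-0.35 ± 0.0382, adjusted p = 1.15e-11), where GNF-7 libraries held 544, 556 and 545 CPM and DMSO libraries 739, 649 and 711 CPM. With a filter at a mean of 5 CPM, STC1 was called higher at 6 h (0.089, adjusted p = 0.0404). The change of the effect between times was called for STC1 (-0.39 ± 0.0537) and not for STC2 (-0.16 ± 0.0731, adjusted p = 0.117), though STC2 was called without senescent DMSO 6 h replicate 1 (-0.20), GNF-7 6 h replicate 2 (-0.20) or DMSO 24 h replicate 2 (-0.22). A fit without a filter also called STC2 (-0.16). From 6 h to 24 h in DMSO both fell, STC1 with -0.66 ± 0.0381 and STC2 with -0.24 ± 0.052.

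Per length the stanniocalcins were far more abundant than the pappalysins. The FPKM ratio of STC1 plus STC2 to PAPPA plus PAPPA2 was 92.3 ± 3.24 in cycling cells, 59.4 ± 1.66 in senescent DMSO 6 h, 71.1 ± 5.69 in GNF-7 6 h, 42.7 ± 2.41 in DMSO 24 h and 25.7 ± 0.415 in GNF-7 24 h (SD, n = 3). No 2 groups overlapped, and GNF-7 went with a higher ratio than DMSO at 6 h and a lower one at 24 h.

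**Figure D4:**
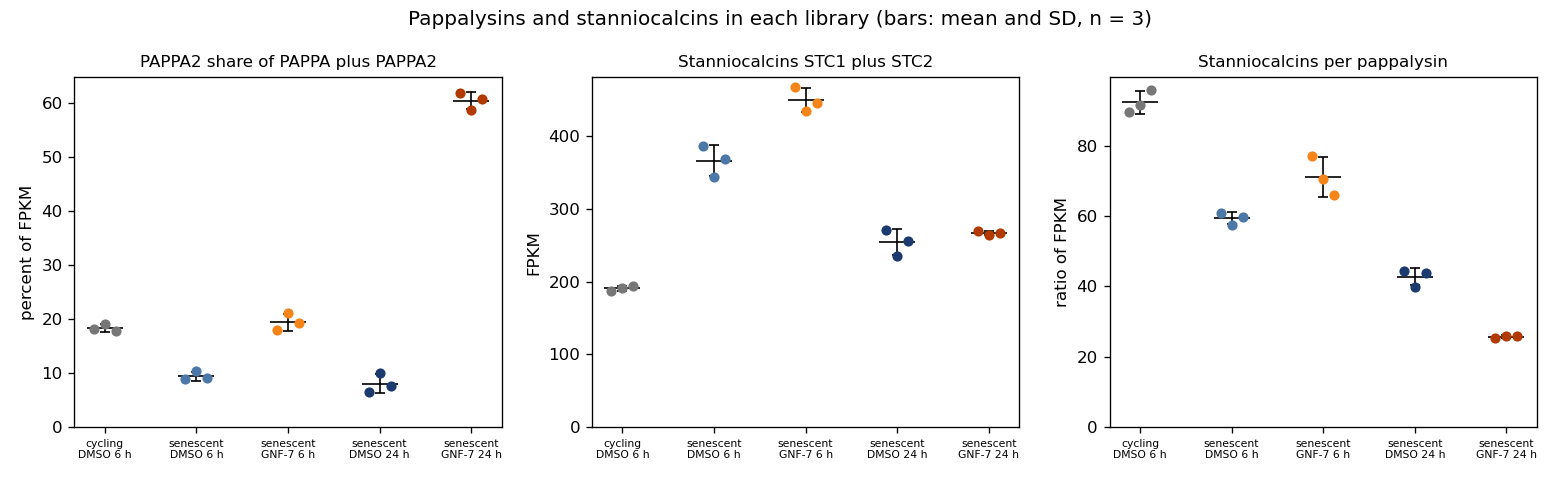
Share of PAPPA2 in the summed pappalysin FPKM (percent), summed stanniocalcin FPKM, and their ratio to pappalysin FPKM, in each library (points) with the group mean and SD (n = 3) as bars. PAPPA2 makes up 60.4% in GNF-7 24 h, and the ratio is lowest there, at 25.7.

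Of 14 IGF ligands, receptors and adaptors, 9 were tested. The ligands were near or at 0: IGF1 had 0 to 5 counts per library and IGF2 1 count in all. With senescence 8 of 9 rose and 0 fell (median 0.69, against 35.6% of all genes higher and a median of 0.06), among them IGF1R, the main IGF receptor (1.04 ± 0.0509), IRS1, its adaptor (0.98 ± 0.0471), and IGF2R, which clears IGF2 (0.69 ± 0.036), with adjusted p of at most 6.95e-26. INSR, the insulin receptor, and IGFALS, named after their values were seen, had 0 counts in cycling cells, 0 to 22 and 1 to 20 in senescent ones, and no cycling or DMSO library of either cleared the filter. Both were among the 8 that rose. With 3 counts allowed over the cycling group, senescent DMSO 6 h was 4.66-fold higher for INSR and 3.73-fold for IGFALS. These ratios take the senescent counts as they stand, so they are not firm lower bounds. With both genes set to them the list's median was 0.69. INSR had 6, 9 and 0 counts in senescent DMSO 6 h, so its libraries overlapped the cycling ones. The IGFALS ratio rests on senescent DMSO 6 h replicate 3, without which 3 counts are left and the list median is 0.59. With GNF-7 at 6 h, 3 rose and 2 fell (median 0.11, beside 17.9% of all genes higher and 21.4% lower), and at 24 h 5 rose and 2 fell (median 0.27, beside 29.3% and 29.7%). INSR and IGFALS were among the 5 and entered the test through their high counts in GNF-7 24 h, so these rises were built in. GRB10, an adaptor that restrains the receptor, rose by 1.54 ± 0.0547 and 1.69 ± 0.0555 (adjusted p = 1.98e-33 and 1.1e-35). It went from 26.9, 26.3 and 24.9 CPM in senescent DMSO 6 h to 74.6, 76.2 and 76.6 CPM with GNF-7. IGF1R rose with GNF-7 at 6 h (0.60 ± 0.0472, adjusted p = 1.38e-16) and was not called at 24 h (-0.06 ± 0.0517, adjusted p = 0.307). The difference of its GNF-7 effect, 24 h minus 6 h, was -0.66 ± 0.07 (adjusted p = 1.08e-11). IRS1 fell with GNF-7 at 6 h (-0.52 ± 0.0457) and at 24 h (-0.68 ± 0.0469). IRS2 rose at both times (0.73 ± 0.0702 and 1.38 ± 0.0723), and SHC1 fell at both (-0.21 ± 0.0343 and -0.66 ± 0.0346). Their adjusted p were at most 5.99e-07. The difference between times was called for IRS2 (0.65 ± 0.101) and SHC1 (-0.44 ± 0.0487), and not for IRS1 (-0.16 ± 0.0654, adjusted p = 0.0523). From 6 h to 24 h in DMSO, 0 rose and 4 fell (median -0.18, beside 9.26% of all genes higher and 9.29% lower). IGF1R was among the 4 (-0.755 ± 0.05, adjusted p = 1.32e-18).

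Of 16 other enzymes known to cut binding proteins, 12 were tested. With senescence 8 rose and 3 fell (median 0.82, beside 35.6% of all genes higher and 34.4% lower), among them MMP3 (2.88 ± 0.117), MMP1 (1.85 ± 0.0761) and cathepsin D (CTSD, 1.31 ± 0.0418), with adjusted p of at most 4.64e-31. ADAM28, named after its values were seen, had 1 to 4 counts in cycling cells and 22 to 32 in GNF-7 24 h. It cleared the filter in senescent libraries only. It was among the 8 that rose with senescence (1.63 ± 0.714, adjusted p = 0.0381), so that rise was in part built in. With GNF-7, 2 rose and 3 fell at 6 h (median -0.01, beside 17.9% of all genes higher and 21.4% lower) and 2 rose and 8 fell at 24 h (median -0.31, beside 29.3% and 29.7%). MMP1, a collagenase, rose at 24 h by 1.31 ± 0.0623 (adjusted p = 1.34e-27), from 28.3, 27.6 and 26.1 CPM in DMSO to 65.9, 70.5 and 67.7 CPM. ADAM9 (-0.74 ± 0.0405) and the plasminogen activator PLAT (-0.66 ± 0.046) fell at 24 h, with adjusted p of at most 9.66e-14. At 6 h PLAT was instead higher with GNF-7 (0.26 ± 0.0462, adjusted p = 3.03e-05). The difference of its GNF-7 effect, 24 h minus 6 h, was -0.92 ± 0.0652 (adjusted p = 8.03e-13). Mean PLAT was 407 CPM in senescent DMSO 6 h, 488 CPM in GNF-7 6 h, 789 CPM in DMSO 24 h and 500 CPM in GNF-7 24 h. In DMSO, 4 rose and 2 fell from 6 h to 24 h (median 0.10, beside 9.26% of all genes higher and 9.29% lower). PLAT was at 0.95 ± 0.0463 (adjusted p = 6.1e-16).

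All 6 cell surface partners of binding proteins were tested, and with senescence 4 rose and 2 fell (median 0.27, beside 35.6% of all genes higher and 34.4% lower). LRP1, an endocytic receptor, rose by 2.14 ± 0.0385 (adjusted p = 1.03e-49), TMEM219, a receptor of IGFBP3, rose by 0.78 ± 0.0643, and CAV1, the coat protein of caveolae, fell by 0.72 ± 0.0389. With GNF-7, 0 rose and 4 fell at 6 h (median -0.20, beside 17.9% of all genes higher and 21.4% lower), and 1 rose and 4 fell at 24 h (median -0.64, beside 29.3% and 29.7%). CAV1 fell by 0.52 ± 0.0394 at 6 h and fell by 1.94 ± 0.0411 at 24 h (adjusted p = 8.49e-17 and 6.94e-43). The integrin subunit ITGA5 (-0.25 ± 0.0354 and -0.90 ± 0.0359) and the Wnt co-receptor LRP6 (-0.48 ± 0.0612 and -0.96 ± 0.0644) fell at both times, with adjusted p of at most 4.45e-08. From 6 h to 24 h in DMSO, 1 rose and 0 fell (median 0.01, beside 9.26% of all genes higher and 9.29% lower). CAV1 was the gene called (0.34 ± 0.0389).

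The genes most like the 3 members of widest range were sought among 10516 protein-coding genes by Pearson's r of log2 CPM over the 15 libraries, which share 5 groups, so the values describe these libraries. PAPPA2, whose group means spanned 4.03 on the log2 scale, was most like MAFG (r = 0.994), KLHL29 (0.979) and VAC14 (0.978). These moved by far less, with GNF-7 changes at 24 h of 0.83, 1.13 and 1.16. The genes most like IGFBP6 (range 1.92) included EFEMP2 (0.985) and B2M (0.980), and those most like IGFBP2 (range 1.80) were PGD (0.978), SPIDR (0.978) and IL1RAP (0.977).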

How the data were processed

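Gene-level read counts, not normalized, were deposited by the authors as 1 table. Per the submitters' processing notes, the tools were bcl2fastq 2.20.0.422, STAR 2.7.9a and featureCounts 1.5.1, and the build was GRCh38. The kit was one for stranded mRNA, per the labels' protocols. The annotation release and the strand setting are not given in the sources used here. A broken entry of 3 lines was left out of 60673 rows. Positions and exon lengths are from GENCODE 29 on GRCh38. The named genes, their lists and the tests were chosen with earlier results of these data known. Of each list, the pappalysin inhibitors and the 3 smallest p-values per comparison were open to naming, and likeness was sought for the 3 members of widest range among those of a mean of at least 1 CPM. edgeR 4.0.16 in R 4.3.3 fitted 5 groups after filterByExpr (18563 genes) and TMM scaling, with a robust quasi-likelihood test and Benjamini-Hochberg adjustment. Alternatives used DESeq2 1.42.0, limma 3.58.1, other scalings, filters and left-out libraries. The test was checked on simulated data. CPM and FPKM use TMM-scaled totals. Libraries of 1 group differed beyond sampling noise (chi-square per degree of freedom at least 2.94), so all 15 were kept. One gene of the likeness search is not reported here.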

Additional observations from a re-analysis of the deposited data

Results flagged for a closer look

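For 5 of the 6 tested genes, beside 30.8% of all genes, the GNF-7 effect against DMSO differed between 24 h and 6 h. The test was the interaction term of edgeR's quasi-likelihood fit. On the log2 scale the difference, 24 h minus 6 h, was 2.64 for PAPPA2, -0.54 for IGFBP6, -0.36 for IGFBP7, -0.28 for PAPPA and -2.43 for IGFBP4. In DMSO, IGFBP6 and IGFBP7 rose from 6 h to 24 h by 0.78 and 0.32. In GNF-7 the mean of IGFBP6 went from 58.1 to 68.8 CPM and that of IGFBP7 from 216 to 210 CPM. The IGFBP4 value (adjusted p = 0.04) rests on 1 to 19 counts per library in these groups. Its call was lost under 3 other settings and without any 1 of 8 libraries. Of these groups IGFBP4 cleared the filter only in GNF-7 6 h, so the call was in part built in.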

How the results depend on the processing

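Of 712 alternative values of the tested genes, 654 kept direction and side of the threshold, 32 lost the call, 6 gained one and 20 reversed. The called changes of PAPPA2, IGFBP6, IGFBP7 and IGFBP2 with senescence or GNF-7 kept their calls under all alternatives run. The number of these genes called under GNF-7 at 6 h was 4, and 2 with a filter at a mean of 5 CPM, which removed IGFBP4 and ended the call of PAPPA; without 1 library it was 3 to 4. Without 1 library it was 5 in senescence, 4 to 5 for GNF-7 at 24 h and for the difference between times, and 2 to 4 for the DMSO times. Correlations of same-numbered libraries of different groups ran from -0.141 to 0.254, and 12 of 30 were over 0.1. For 0 of 15 libraries was the own number the best match in all other groups at once. That measure is strict and cannot exclude pairing. With the replicate number as a block, the counts of tested genes called were 5, 4, 4, 5 and 3. Those of all genes were 13032, 7481, 11031, 5921 and 3711, against 12999, 7286, 10940, 5723 and 3443 without the block. With the block, STC2 was called for the difference between times (-0.16, adjusted p = 0.00515). With total counts as the scale, the median change over all genes was 0.195 in place of 0.06 in senescence and -0.10 in place of 0.009 for the DMSO times, where the share of called genes that were higher went from 49.9% to 12.5%, and 59.4% against 50.9% in senescence. Reversals came in changes that were not called. IGFBP7 under GNF-7 at 6 h was -0.016 without a filter and ran from -0.023 to 0.043 without 1 library. IGFBP2 was 0.029 at 6 h and 0.027 at 24 h with the 5 CPM filter and 0.00028 with limma voom at 6 h, and without 1 library ran from -0.17 to 0.17 at 6 h, -0.19 to 0.028 at 24 h and -0.25 to 0.086 for the difference. IGFBP4 under GNF-7 at 24 h was 0.019 with total counts and 0.0088 with limma voom, and -0.35 to 0.47 without 1 library. STC1 at 6 h was -0.0037 without senescent DMSO 6 h replicate 2 and 0.073 without replicate 1, and TMEM219 between the DMSO times -0.015 with total counts. The causes were not tested. Depth limits IGFBP1, IGFBP3, IGFBP4 and IGFBP5.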
